A study of Drosophila melanogaster with 17 samples.

Results

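The cytosolic ribosomal protein genes of Drosophila melanogaster were followed through fly heads and guts. They were taken by symbol, as every gene named RpL, RpS, RpLP or a numbered copy of these, and numbered 92 among the 23882 features of the head table and the 18354 features of the gut table. Of the 92, 50 encode proteins of the large subunit, 38 proteins of the small subunit and 4 belong to the stalk group (RpLP0, RpLP0-like, RpLP1 and RpLP2). Altogether 65 were single copies, and 27 fell into 13 families with more than 1 copy. The symbols leave out sta, the RpSA protein, and Rack1, a scaffold on the small subunit, and these are given beside the members.

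Mated males were housed 20 to a vial at 25 °C and 60% humidity, lights on for 12 h and off for 12 h a day, and polyadenylated RNA was taken 8 h after lights on. Heads came from orco2 flies, mutant for the odorant co-receptor Orco, at day 40 and at day 3, and from the control strain w1118, a mutant of the eye colour gene white, at day 40 and at day 3, with 2 libraries in each of the 4 groups. Guts came at day 40 from per01 flies, mutant for the clock gene period, from orco2 flies and from w1118 flies, with 3 libraries in each of the 3 groups. How many flies made up a library, and whether libraries came from separate vials, is not given in the sources used here, so p-values reflect spread among libraries that could be technical alone.

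Each ribosome carries a single copy of nearly every ribosomal protein, and cells make these proteins in close to equal amounts for both subunits. In animals most of their messages carry a 5′ pyrimidine tract through which mTor signalling controls translation, and in flies loss of 1 gene copy of many of them gives the Minute phenotype of slow growth and short bristles. A minority of fly ribosomal proteins have a second gene, and several of these second copies are known mainly from the germline.

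Library totals ran from 27082849 to 33932201 counts in heads and from 25792664 to 41693684 in guts. CPM below are counts scaled to a common library size with TMM, TPM are levels per exon length within a library, and fold changes are log2 with their SE from edgeR fits over all genes of a tissue. A gene rose or fell when its adjusted p was under 0.05 (edgeR's quasi-likelihood test with Benjamini-Hochberg adjustment). A list of 18 neuronal genes summed to 8515 to 17526 CPM in heads and 106 to 477 CPM in guts, and 24 digestive enterocyte genes summed to 59.7 to 769 CPM in heads and 12079 to 217564 CPM in guts. In bulk RNA, fewer cells of a type and less RNA per cell cannot be told apart.

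Some libraries stood apart from their replicates over these genes. In the orco2 heads at day 3, the log2 difference of replicate 2 from replicate 1 had an SD of 0.41 over 83 members at more than 1 CPM, against 0.066 to 0.10 in the other 3 head groups. RpS29 was lower in replicate 2 by 1.15 on the log2 scale, while RpL38 was higher by 1.09, and 18 members were more than 0.5 higher and 3 more than 0.5 lower. In the per01 guts, 83 of 85 members were more than 0.5 lower in CPM in replicate 1 than in either of the others. Medians were 0.91 for replicate 2 over replicate 1 and 0.82 for replicate 3 over replicate 1. These gaps include the scaling, since TMM factors were 0.956, 0.70 and 0.64 in replicates 1, 2 and 3. As a share of all counts, which needs no TMM, the members were at 5.48, 7.59 and 6.40% in these libraries. The w1118 guts differed in shape, since RpL38 in replicate 2 lay 1.87 below replicate 1. Results that rest on these libraries are given with and without them.

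**Figure D1:**
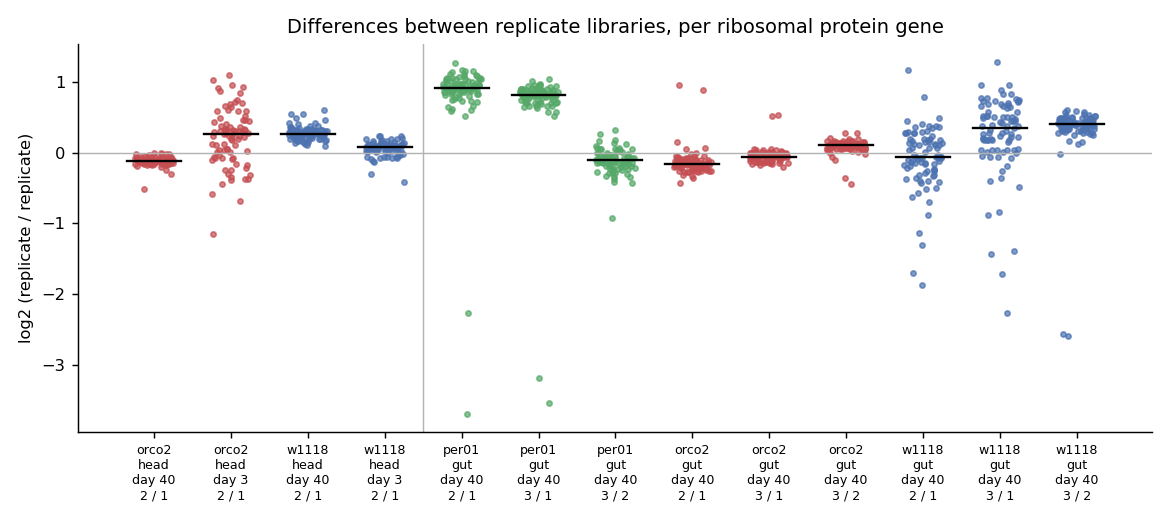
Log2 ratio of CPM between replicate libraries of a group (y axis) for each ribosomal protein gene above 1 CPM in every library of its tissue (83 in heads, 85 in guts), with the pair named under the x axis and a bar at the median. The day 3 orco2 heads spread wider than the other 3 head groups, and both per01 gut pairs with replicate 1 lie well above 0. The per01 gaps include differences in the TMM factors of these libraries.

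Most members were among the highest expressed genes and the second copies were mostly low. The median level over libraries was above 1000 TPM for 74 of the 92 members in heads and for 58 in guts. In heads RpLP2 of the stalk led at a median of 4529 TPM, followed by RpS18 at 3916 TPM and RpL41, which encodes a very short peptide, at 3768 TPM. In guts RpL27A led at 3140 TPM (lowest library 2309, highest 5481), before RpL41 at 2995 TPM and RpL23 at 2807 TPM. The lowest single-copy member still reached 450 TPM in heads and 336 TPM in guts. Of the 14 second copies, 10 in heads and 11 in guts lay under 50 TPM, whereas their partners ran from 1214 to 2235 TPM in heads and from 487 to 1437 TPM in guts.

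The share of all counts that fell in the members was highest in orco2 heads at day 40 and lowest in w1118 heads at day 3. The share was 10.7 and 10.2% in orco2 heads at day 40, 6.08 and 7.11% in orco2 heads at day 3, 7.12 and 8.19% in w1118 heads at day 40 and 4.84 and 4.99% in w1118 heads at day 3. The higher orco2 library at day 3 and the lower w1118 library at day 40 thus lay side by side, without overlap. Means were 10.4 ± 0.35% in orco2 and 7.66 ± 0.76% in w1118 heads at day 40, and 6.59 ± 0.73% in orco2 and 4.92 ± 0.11% in w1118 heads at day 3 (SD, n = 2 each). All 4 comparisons within an age or a genotype were without overlap, and each gave a two-sided exact permutation p of 0.333 (0.389 after Benjamini-Hochberg adjustment over 7 comparisons), the smallest that 2 against 2 libraries allow.

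In guts the share was 5.48, 7.59 and 6.40% in per01, 6.76, 6.21 and 6.57% in orco2 and 7.91, 8.04 and 10.3% in w1118. Both mutants lay below all 3 w1118 libraries, at 6.49 ± 1.06% in per01 and 6.51 ± 0.28% in orco2 against 8.75 ± 1.35% in w1118 (SD, n = 3 each; two-sided exact permutation p = 0.1 for each, the smallest possible, 0.35 after adjustment over the 7 comparisons). The 2 mutants overlapped (p = 1 by the same exact test).

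**Figure D2:**
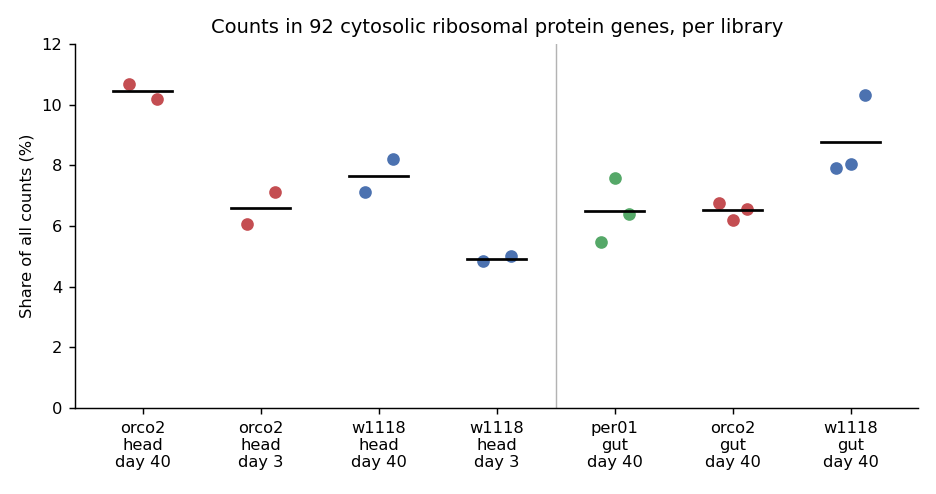
Share of all counts of a library that fell in the 92 cytosolic ribosomal protein genes (y axis, percent), with a point for each library and a bar at the group mean (n = 2 for heads, n = 3 for guts). Orco2 heads lie above w1118 heads of the same age, and per01 and orco2 guts lie below w1118 guts.

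In heads at day 40, ribosomal protein messages were higher in orco2 than in w1118 nearly throughout. Of the 85 members that passed the low-count filter, 57 rose and 0 fell, 67.1% of the members against a background of 8.06% of all 12243 tested genes called higher, 4.89% lower and 13% in either direction. The median fold change of the members was 0.62 (1.53-fold), and that of all tested genes was -0.0017. The subunits moved alike, with 33 of 46 large subunit genes and 23 of 35 small subunit genes higher and medians of 0.61 and 0.64. Both orco2 libraries lay above both w1118 libraries for 82 members and below for 0, against 33.2% and 32.9% of all tested genes. How many members passed depended on single libraries, as did calls over all tested genes. Leaving out 1 head library leaves 1 in its group, so only effect sizes are given here for such fits. Medians were 0.48 and 0.78 without w1118 replicates 1 and 2, and 0.61 and 0.69 without orco2 replicates 1 and 2.

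Of the stalk proteins, which recruit the GTPase elongation factors, RpLP1 had 2026 and 1805 CPM in orco2 heads and 1068 and 1239 CPM in w1118 heads at day 40. Its fold change was 0.73 ± 0.19 (adjusted p = 0.0403 by edgeR). RpLP2, its dimer partner, had 2073 and 1685 CPM in orco2 against 1084 and 1352 CPM in w1118 heads, and RpLP0, the base of the stalk, had 2018 and 1855 CPM in orco2 against 1220.2 and 1438 CPM in w1118 heads. The groups did not overlap for any of the 3, but RpLP2 (0.63 ± 0.19, adjusted p = 0.0659 by edgeR) and RpLP0 (0.54 ± 0.19, adjusted p = 0.103) missed the threshold.

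The single-copy gene with the largest difference at day 40 was RpS21, a small subunit protein. It had 608 and 604 CPM in orco2 against 276 and 336 CPM in w1118 heads (0.99 ± 0.15, adjusted p = 0.00688 by edgeR). RpS20 followed at 0.86 ± 0.17 and RpL27A at 0.82 ± 0.13, with RpS3 (0.79 ± 0.13), RpL35A (0.74 ± 0.12) and RpS13 (0.74 ± 0.12) also among those of smallest p. At the low end stood RpS2 at 0.36 ± 0.14, which did not pass, RpL5, which carries 5S RNA, at 0.44 ± 0.10, which passed, and RpL7A at 0.44 ± 0.19, which did not. The single-copy members thus spanned 0.36 to 0.99 on the log2 scale.

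At day 3 the difference between genotypes had the same sign in 84 of 85 members, and 24 rose and 0 fell (28.2% of the members, background 4.85% called higher, 2.43% lower and 7.28% in either direction). The median was 0.52 (1.43-fold), against 0.015 over all tested genes. By subunit, 12 of 35 small and 11 of 46 large subunit genes rose. RpLP1 had 929 and 1392 CPM in orco2 heads and 581 and 627 CPM in w1118 heads (0.94 ± 0.19, adjusted p = 0.0221 by edgeR), while RpLP0 had 961 and 639.8 CPM in orco2 against 668 and 762 CPM in w1118 heads (0.16 ± 0.19, not passed). The RpLP0 libraries of the groups overlapped, through orco2 replicate 2.

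Among single copies at day 3, RpL12, RpS21, RpS18 and RpS20 had the smallest p beside RpLP1. RpL12, which sits at the stalk base, had 921 and 1001 CPM in orco2 against 604 and 653 CPM in w1118 heads (0.61 ± 0.11, adjusted p = 0.0158 by edgeR). RpL41 (0.97 ± 0.25) and RpL38 (0.88 ± 0.31) had larger fold changes and did not pass. RpL38 had 335 and 713 CPM in orco2 heads, against 289 and 278 CPM in w1118 heads, so the groups were apart but the 2 orco2 libraries differed more than 2-fold. RpS29, a zinc-binding small subunit protein, was the only member below 0 at -0.04 ± 0.31, with 708 and 319.9 CPM in orco2 against 485 and 570.3 CPM in w1118 heads.

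The day 3 count depended on single libraries, as did calls over all tested genes. Medians were 0.62 and 0.39 without orco2 replicates 1 and 2, and 0.48 and 0.56 without w1118 replicates 1 and 2. Of the 24 genes that rose at day 3, 22 also rose at day 40, which is 91.7% of the first list and 38.6% of the second. Fold changes at the 2 ages, which share no library, had a Pearson r of 0.40 and a Spearman rho of 0.33 over 85 members, as a description over genes that are not independent.

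With age the same genes were higher in both genotypes. In orco2 heads, 63 of 85 members rose at day 40 and 0 fell (74.1%, background 12.8% called higher, 11.4% lower and 24.2% in either direction), with a median of 0.78 (1.72-fold). In w1118 heads, 59 rose and 0 fell (69.4%, background 8.56% called higher, 7.23% lower and 15.8% in either direction), with a median of 0.65 (1.57-fold). Over all tested genes the medians were -0.0089 in orco2 and 0.041 in w1118. The lists shared 58 genes, 92.1% of the orco2 list and 98.3% of the w1118 list, and the age differences of the 2 genotypes, which share no library, had a Pearson r of 0.79 and a Spearman rho of 0.70 over 85 members.

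RpS26, a small subunit protein near the messenger RNA exit, was among the genes with the largest age difference in both genotypes. It had 2553 and 2303 CPM in orco2 heads at day 40 and 898 and 1021 CPM at day 3 (1.34 ± 0.14, adjusted p = 0.00115 by edgeR). In w1118 heads it had 1235 and 1579 CPM at day 40 and 628 and 636 CPM at day 3 (1.15 ± 0.14, adjusted p = 0.00206). The ages did not overlap in either genotype.

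RpL18, a large subunit protein, had 1551 and 1439.8 CPM at day 40 and 694 and 703 CPM at day 3 in orco2 heads (1.10 ± 0.11, adjusted p = 0.000925 by edgeR). In w1118 heads it had 921 and 1032 CPM at day 40 and 482 and 509.6 CPM at day 3 (0.98 ± 0.11, adjusted p = 0.00148). RpL35, at the peptide exit tunnel, rose in both (1.22 ± 0.11 in orco2 and 0.98 ± 0.11 in w1118). With any 1 library left out, RpL18 stayed at 1.08 to 1.16 in orco2 and 0.90 to 1.06 in w1118. RpL35 stayed at 1.21 to 1.28 in orco2 and 0.90 to 1.07 in w1118, and RpS26 at 1.26 to 1.47 and 0.97 to 1.32. Whether other named members passed in heads often depended on single libraries.

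Other single copies with large fold changes or small p were RpL31 (1.38 ± 0.17), RpL32 (1.24 ± 0.17) and RpL35A (1.18 ± 0.12) in orco2 heads, and RpS16 (1.04 ± 0.14), RpL32 (0.99 ± 0.17) and RpL3 (0.77 ± 0.10, of smaller size but small p) in w1118 heads. RpS3A stood at the low end in both, at 0.19 ± 0.13 in orco2 and 0.09 ± 0.13 in w1118, and did not pass. RpL41 had 682 and 676 CPM in orco2 heads at day 40 and 627 and 1016 CPM at day 3 (-0.27 ± 0.25), and 393 and 575 CPM in w1118 heads at day 40 and 463 and 377 CPM at day 3 (0.20 ± 0.25). Its ages overlapped in both genotypes and it passed in neither.

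The age counts depended on single libraries too, as did calls over all tested genes. In orco2 heads the medians were 0.70 and 0.94 without day 3 replicates 1 and 2, and 0.75 and 0.83 without day 40 replicates 1 and 2. In w1118 heads they were 0.62 and 0.68 without day 3 replicates 1 and 2, and 0.79 and 0.53 without day 40 replicates 1 and 2. The interaction of age and genotype called 0 members by edgeR, DESeq2 or limma-voom. Of all 12243 tested genes it called 1 by edgeR (0.00817%), 186 by DESeq2 and 1 by limma-voom. An unadjusted p was under 0.05 for 1 member by edgeR, 5 by DESeq2 and 4 by limma-voom, and the median was 0.13. RpS29 (0.54 ± 0.44), RpL36A (0.53 ± 0.23) and RpL35A (0.47 ± 0.17) were highest among single copies, and RpL41 (-0.48 ± 0.36), RpS9 (-0.29 ± 0.39) and RpL7A (-0.27 ± 0.27) lowest.

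In all, 22 members rose in all 4 head comparisons, among them RpLP1, RpL4, RpL8, RpL11, RpS3, RpS18, RpS26 and RpS19a. The comparisons share libraries. No more than 4.85% of all tested genes can have risen in all 4, since that share was called higher between genotypes at day 3. The shares of all tested genes that rose in all 4 or passed in none are not given here. Another 17 of the 85 passed in none, among them RpL7A, RpL10Ab, RpL22, RpL23, RpL24-like, RpL36, RpL38, RpL39, RpL41, RpLP0-like, RpLP2, RpS9, RpS10a, RpS14a, RpS15Aa and RpS15Ab. Several of these differed widely between the orco2 replicates at day 3. RpS9 had 135 and 261 CPM in them, and RpL22 had 425 and 803 CPM. Outside the symbol rule, Rack1 was higher in all 4 head comparisons (0.56 ± 0.11 and 0.45 ± 0.11 in orco2 against w1118 at day 40 and day 3, 0.85 ± 0.11 and 0.73 ± 0.11 at day 40 against day 3 in orco2 and w1118), and sta rose with age in both genotypes (0.85 ± 0.14 in orco2 and 0.94 ± 0.14 in w1118) but did not pass between genotypes (0.34 ± 0.14 at day 40 and 0.44 ± 0.14 at day 3).

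Several cell type lists moved with these head differences. The backgrounds for their counts were 8.06% of all tested genes called higher and 4.89% lower between genotypes at day 40, and 4.85% and 2.43% at day 3. With age they were 12.8% and 11.4% in orco2, and 8.56% and 7.23% in w1118. A list of 10 glia genes summed to 2197 to 2678 CPM in all head libraries, though single genes moved both ways. With age 4 rose and 2 fell in orco2 and 2 rose and 2 fell in w1118. Between genotypes 1 rose at day 3 and 0 passed at day 40. A list of 8 haemocyte genes was at 366 to 815 CPM, highest in orco2 heads at day 40. Of these, 2 rose and 1 fell with age in each genotype, and 2 rose between genotypes at day 40 and 0 passed at day 3. An 18-gene fat body list summed to 20636 to 24519 CPM in orco2 heads at day 40, 8796 to 12335 CPM in orco2 heads at day 3, 9552 to 11500 CPM in w1118 heads at day 40 and 3452 to 4229 CPM in w1118 heads at day 3, and only Fbp2 was at 0, in orco2 heads at day 40. Of its 17 tested genes, 7 rose and 1 fell between genotypes at day 40, 10 rose at day 3, and 8 rose with age in orco2 and 13 in w1118. The 18 neuronal genes, none at 0, summed to 8515 to 8861 CPM in orco2 heads at day 40, 13850 to 17526 CPM in orco2 heads at day 3, 10245 to 11380 CPM in w1118 heads at day 40 and 16647 to 16924 CPM in w1118 heads at day 3. Of these, 17 fell with age in orco2 and 9 in w1118, and 3 were lower in orco2 at day 40 and 1 at day 3. Of 14 muscle genes, 10 fell with age in each genotype, and their sum was 3624 to 4120.5 CPM in orco2 heads at day 40, 7947 to 8008 CPM in orco2 heads at day 3, 3287 to 4001 CPM in w1118 heads at day 40 and 8174 to 8504 CPM in w1118 heads at day 3. Of 14 photoreceptor genes, 8 rose and 1 fell in orco2 against w1118 at day 3 and 2 rose and 1 fell at day 40, while 3 rose and 5 fell with age in orco2 and 7 rose and 2 fell in w1118. Their sum was 102400 to 106926 CPM in orco2 heads at day 40, 86632 to 86887 CPM in orco2 heads at day 3, 105999 to 110849 CPM in w1118 heads at day 40 and 66970 to 70284 CPM in w1118 heads at day 3, and no gene of these 2 lists was at 0. The part of any of these lists in the ribosomal protein differences was not tested.

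The counts of other translation genes in heads stand against backgrounds of 8.06% of all tested genes called higher between genotypes at day 40, 4.85% at day 3, 12.8% with age in orco2 and 8.56% with age in w1118. Several of the shares below lie near these. Of 40 translation factors, 11 rose between genotypes at day 40 and 3 at day 3, 13 rose and 2 fell with age in orco2, and 7 rose and 1 fell with age in w1118. The elongation factors led: eEF1beta, a subunit of the exchange factor, was higher in orco2 by 1.504 at day 40 and 1.39 at day 3, eEF1gamma, its partner, by 0.84 and 0.67, and eEF1alpha1, which delivers aminoacyl-tRNA, by 0.88 and 1.11. With age Tctp, a growth-promoting protein, rose by 1.10 in orco2 and 0.95 in w1118, and eIF3l fell by 0.65 in orco2 and 0.68 in w1118.

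Of 43 ribosome biogenesis genes, 3 rose between genotypes at each age (Noc2, nclb and Nop17l), 9 rose and 1 fell with age in orco2, and 7 rose with age in w1118. Noc2, a 60S assembly factor, was higher in orco2 by 0.95 at day 40 and 1.92 at day 3. Of 22 regulators of growth and ribosome supply, 2 rose between genotypes at day 40 (Rheb by 0.38 and S6k by 0.53) and none passed at day 3. With age 4 rose in orco2 (Xrp1 0.72, Thor 1.14, Rheb 0.36, foxo 0.52) and 2 in w1118 (Xrp1 0.99, Myc 0.73). Of 72 mitochondrial ribosomal protein genes, 1 rose between genotypes at day 40 and 3 fell with age in each genotype, with medians of 0.23 between genotypes at day 40, 0.054 at day 3, -0.065 with age in orco2 and -0.23 with age in w1118. No test of the difference between these lists and the ribosomal proteins was made.

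**Figure D3:**
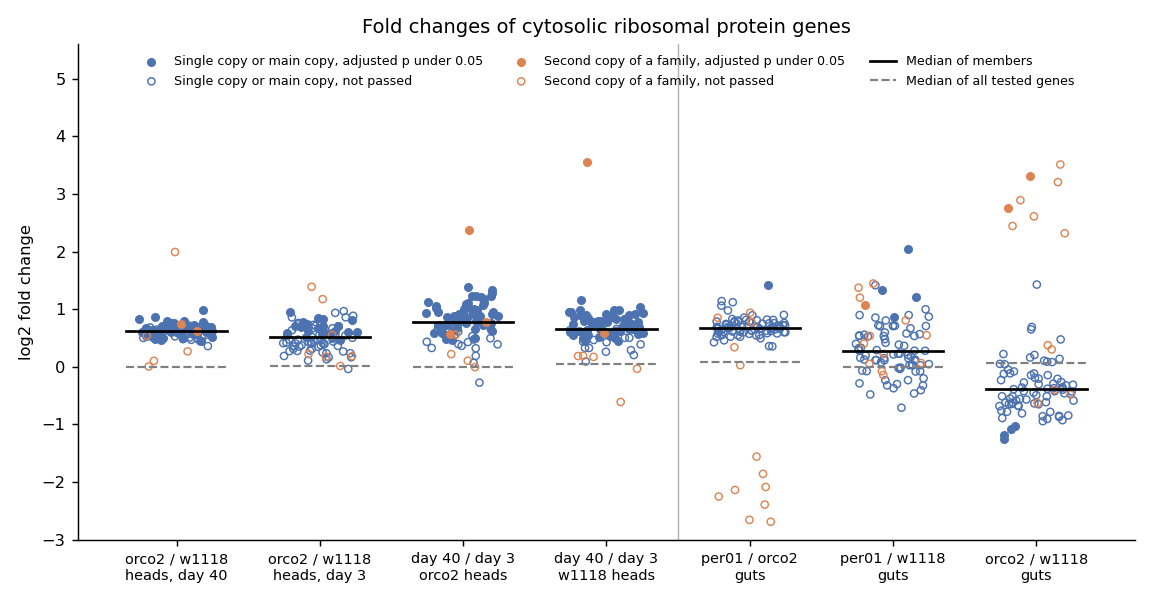
Log2 fold change (y axis) of each tested ribosomal protein gene in 7 comparisons (85 in heads, 91 in guts), filled where adjusted p was under 0.05 by edgeR, with second copies in orange, a black bar at the members' median and a dashed grey bar at the median of all tested genes. The 4 head comparisons have medians of 0.52 to 0.78, and the gut comparisons have medians of 0.66, 0.28 and -0.39 with few calls.

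In guts few members passed. Orco2 against w1118 guts gave 2 higher and 4 lower of 91 tested members (6 calls, background 26.6% in either direction, 11.5% higher and 15.1% lower), with a median of -0.39 (1.31-fold lower) against 0.058 over all tested genes. All 3 orco2 libraries lay above all w1118 libraries for 12 members and below for 45, against 35.4% and 26.1% of all tested genes. The 4 that fell were RpL3, RpL17 and RpL7 of the large subunit and RpS6, the substrate of S6 kinase. RpL3, near the peptidyl transferase centre, had 1120, 999.5 and 1083 CPM in orco2 guts and 1959, 2514 and 3156 CPM in w1118 guts (-1.25 ± 0.31, adjusted p = 0.0243 by edgeR). RpS6 had 784, 696 and 734 CPM in orco2 against 1319, 1453 and 1879.8 CPM in w1118 guts (-1.07 ± 0.30, adjusted p = 0.0344). Neither overlapped.

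RpL17 (-1.18 ± 0.36) and RpL7 (-1.03 ± 0.32) were likewise lower in all 3 orco2 libraries. RpL38 went the other way at 1.43 ± 0.50 and did not pass, with 404, 346 and 361 CPM in orco2 against 262, 71.5 and 79.8 CPM in w1118 guts. RpL41 (0.69 ± 0.45) and RpL39 (0.65 ± 0.37) did not pass either. The stalk was close to 0, at 0.11 ± 0.32 for RpLP1, 0.22 ± 0.31 for RpLP2 and -0.26 ± 0.28 for RpLP0, and none passed. Counts were 3 higher and 7 lower without w1118 replicate 1, 1 and 2 without w1118 replicate 2, and 0 without w1118 replicate 3 or any orco2 library. Calls over all tested genes fell as well, from 3573 with all libraries to between 590 and 3198.

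Per01 against w1118 guts gave 5 higher and 0 lower (background 9.66% higher, 9.33% lower and 19% in either direction), with a median of 0.28 (1.21-fold). The 5 were RpL38, RpL39, RpL29, RpS9 and RpLP0-like. RpL38 had 395, 623 and 682 CPM in per01 and 262, 71.5 and 79.8 CPM in w1118 guts (2.04 ± 0.51, adjusted p = 0.0282 by edgeR). RpS9 had 257, 387 and 406 CPM in per01 and 206, 161 and 211 CPM in w1118 guts (0.86 ± 0.23, adjusted p = 0.0373). Both were without overlap.

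RpL39, at the exit tunnel, had 162, 313 and 259.7 CPM in per01 and 149, 60.2 and 83.1 CPM in w1118 guts (1.33 ± 0.37), and RpL29 had a fold change of 1.21 ± 0.35. RpL39 shares antisense exon sequence with RpL12, RpL29 with CG9752, RpS9 with an antisense RNA and RpLP0-like with Jra, and no strand setting is given for the counting. RpL3 (-0.71 ± 0.31), RpL4 (-0.48 ± 0.32) and RpS6 (-0.46 ± 0.30) were lowest and did not pass. In both comparisons with w1118 guts shorter genes tended to higher fold changes, with a Pearson r between fold change and log2 exon length of -0.55 for per01 and -0.43 for orco2 over 91 members, and the 2 share the w1118 libraries. In heads that r lay between -0.17 and 0.14 in the 4 comparisons.

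Per01 against orco2 guts gave 1 higher and 0 lower (background 3.33% higher, 2.07% lower and 5.4% in either direction), with a median of 0.66. Of the 91 members 83 were above 0, and RpL36 (1.14 ± 0.31), RpL29 (1.12 ± 0.35) and RpL37A (1.06 ± 0.32) led the single copies without passing. Without per01 replicate 1 the counts became 66 higher and 8 lower against orco2 and 24 higher against w1118. Of 13798 tested genes, 5211 were then called against orco2 and 2937 against w1118. Without per01 replicate 2 the member counts were 0 and 0, and without per01 replicate 3 they were 0 and 1. Without any orco2 library the member count against orco2 was 0. In these fits 19 to 88 of all tested genes were called against orco2. Against w1118 the member count was 7 without w1118 replicate 1 and 0 without replicate 2 or 3.

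The direction of the per01 results depended on the scaling. TMM factors were 0.956, 0.70 and 0.64 in per01, 1.16, 1.19 and 1.17 in orco2 and 1.13, 1.15 and 1.11 in w1118 guts, and the digestive enterocyte list summed to 116692 to 217564 CPM in per01, 22000 to 42458 CPM in orco2 against 12079 to 29636 CPM in w1118, with none of its 24 genes at 0. With library totals alone, an alternative chosen after seeing the data, the per01 medians were -0.34 against w1118 (1 higher, 20 lower) and -0.014 against orco2 (1 higher, 0 lower), and the medians of all tested genes shifted to -0.53 and -0.56. Relative to all tested genes the members were above 0 in both scalings. Orco2 against w1118 guts kept a median of -0.34 with 0 higher and 18 lower. The part of the digestive genes was not tested.

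Of the neighbouring lists in guts, 24 of 72 mitochondrial ribosomal protein genes rose in per01 against w1118 (background 9.66% called higher), with mRpS21 at 2.39. In orco2 against w1118 it was 9 of 72, near the background of 11.5%, with mRpS21 at 1.66. Of 22 growth regulators, 3 rose and 4 fell in per01 and 8 fell in orco2 against w1118, with mTor, the central growth kinase, at a log2 change of -1.498 in per01 and -2.02 in orco2, and its partner raptor at -1.39 in per01 and -1.71 in orco2. Of 40 translation factors 2 rose and 2 fell in per01 and 3 rose and 6 fell in orco2. Of 43 biogenesis genes 6 rose and 2 fell in per01 and 5 rose and 4 fell in orco2. The backgrounds for these lists were 9.66% called higher and 9.33% lower in per01, and 11.5% higher and 15.1% lower in orco2. The translation factors did not exceed them, and the biogenesis genes lay on both sides of them. Rack1 was at -0.88 ± 0.29 (adjusted p = 0.0524 by edgeR) and sta at -0.71 ± 0.34 in orco2 against w1118 guts, and neither passed there or in per01.

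Second copies behaved in 3 ways. RpS14b, RpL34a, RpL24-like and RpS15Ab had 500 or more counts in every library, RpLP0-like had 253 or more, and the remaining 9 were low in heads and variable in guts. RpL7-like had 0 counts in all head libraries and 5 counts in all over the 9 gut libraries, and RpL10Aa had 0 counts in all 8 head libraries, whereas its partner RpL10Ab had 539 CPM or more in each. A count of 0 limits reads assigned to the gene and not its use.

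**Figure D4:**
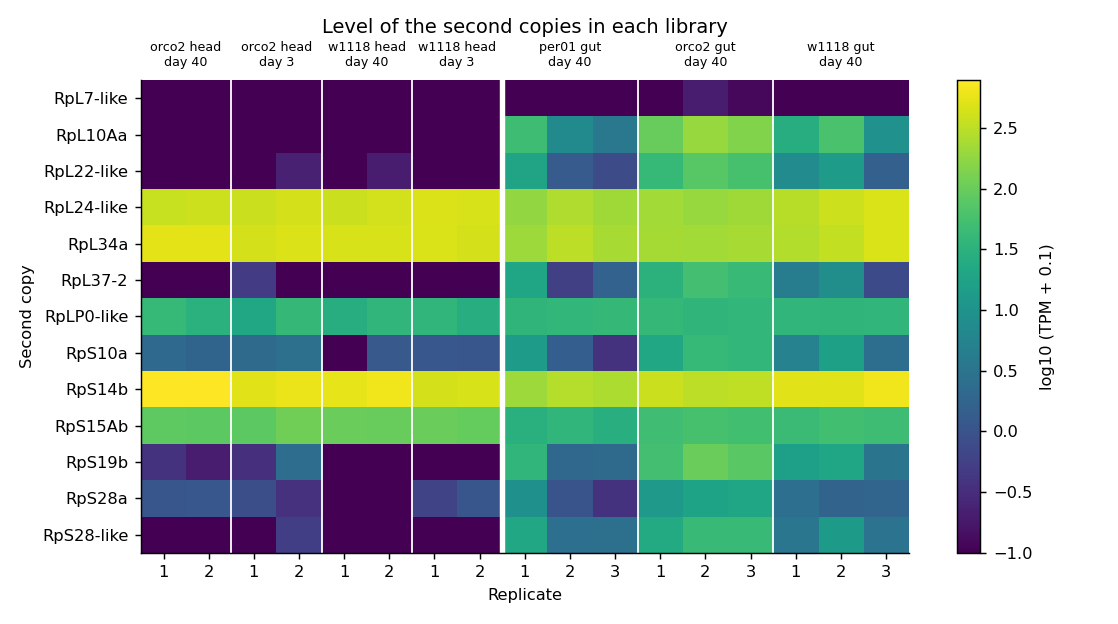
Level of 13 second copies (rows) in each library (columns, grouped by genotype, tissue and day, with the replicate number below), coloured by log10 of TPM plus 0.1. RpL24-like, RpL34a and RpS14b are high throughout, and the copies that are low in heads, RpL7-like aside, are brightest in the orco2 guts.

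Among the main copies of the families in heads, RpS19a rose in all 4 comparisons (0.60 ± 0.14 and 0.62 ± 0.14 in orco2 against w1118 at day 40 and day 3, 0.76 ± 0.14 with age in orco2 and 0.78 ± 0.14 with age in w1118). RpL37-1 rose in all but the day 3 comparison, with its largest difference of 1.10 ± 0.13 with age in orco2, and RpS28b likewise (0.83 ± 0.17). RpL7 rose with age in orco2 (1.22 ± 0.21) and w1118 (0.82 ± 0.21), and RpS10b was at 0.66 ± 0.25 with age in orco2, which did not pass, and rose with age in w1118 (0.91 ± 0.25). RpL22 and RpL10Ab had positive values in all 4 and passed in none.

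Of the widely expressed second copies, RpS14b rose at day 40 in orco2 against w1118 (0.74 ± 0.16, adjusted p = 0.022 by edgeR) and with age in orco2 (0.78 ± 0.16) and w1118 (0.59 ± 0.16). RpL24-like, related to the yeast assembly factor Rlp24, did not pass with age at 0.22 ± 0.15 in orco2 and -0.03 ± 0.15 in w1118, while RpL24 rose by 0.94 ± 0.13 and 0.65 ± 0.13. RpL34a had 199 and 187 CPM in orco2 heads at day 40 and 119.7 and 141 CPM at day 3, and 118 and 133 CPM in w1118 heads at day 40 and 114 and 109 CPM at day 3. It rose with age in orco2 (0.56 ± 0.12, adjusted p = 0.0141 by edgeR) and did not pass in w1118 (0.17 ± 0.12), where its partner RpL34b rose (0.62 ± 0.14).

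RpS15Ab stayed between 25.6 and 38.5 CPM in all 8 head libraries, with age differences of 0.11 ± 0.19 in orco2 and 0.19 ± 0.19 in w1118. Its partner RpS15Aa had 1209.6 and 1077 CPM in orco2 heads at day 40, 691 and 1051 CPM in orco2 heads at day 3, 732 and 834 CPM in w1118 heads at day 40 and 499 and 546 CPM in w1118 heads at day 3, and did not pass either. RpLP0-like, related to the yeast assembly factor Mrt4, passed in no head comparison. Within a library, the log2 ratio of second copy to partner was lower at day 40 in 4 of 6 pairs in each genotype, with median differences of -0.26 in orco2 and -0.42 in w1118. The ages did not overlap in 5 pairs in orco2 and 6 in w1118, with an exact permutation p of 0.333 at best. No share over other gene pairs is given beside these counts. Over the 63 ratio tests of heads and guts no adjusted p was below 0.242.

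In guts, a group of low second copies was high together in the orco2 libraries, and 7 of them are given here. They are RpL10Aa, RpL22-like, RpL37-2, RpS10a, RpS19b, RpS28a and RpS28-like. Together they had 84.5, 11.5 and 7.78 CPM in per01, 119.6, 221 and 174 CPM in orco2 against 23.0, 46.2 and 7.46 CPM in w1118 guts. All 3 orco2 libraries were highest, and per01 replicate 1 stood above the other per01 libraries and all w1118 libraries.

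Their fold changes in orco2 against w1118 guts ran from 2.32 ± 1.12 for RpS10a to 3.51 ± 1.22 for RpL37-2. RpS28a (3.30 ± 0.99, adjusted p = 0.0409 by edgeR) and RpS28-like (2.76 ± 0.87, adjusted p = 0.0479) passed. RpS28a had 110, 127 and 157 counts in orco2 guts and 17, 9 and 8 counts in w1118 guts, and RpS28-like had 253, 359 and 419 counts in orco2 and 26, 88 and 16 counts in w1118 guts. The RpS28a call was lost with any 1 library left out and that of RpS28-like held only without w1118 replicate 2. RpS28-like shares exon sequence on its strand with CG3769.

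RpL10Aa had 45.4, 88.3 and 65.1 CPM in orco2 against 10.1, 22.6 and 3.76 CPM in w1118 guts (2.44 ± 0.89, not passed), while RpL10Ab was at -0.21 ± 0.27. The RpL10Aa groups did not overlap. RpL22-like (3.20 ± 1.16), RpS19b (2.89 ± 1.06) and RpL37-2 likewise did not pass, and in per01 against w1118 guts the 7 ran from 0.053 to 1.44 with none passing.

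The summed 7 copies and the testis and germline markers ordered the gut libraries alike at the high end and not at the low end. There w1118 replicate 3 ranked 9 for the copies and 7 for the markers, and per01 replicate 2 ranked 7 and 9. The 28 markers summed to 2857, 510.4 and 544 CPM in per01, 4353, 7541 and 5949 CPM in orco2 against 889, 2572 and 652 CPM in w1118 guts, with none at 0 throughout a group, and 6 of 27 tested rose and 0 fell in orco2 against w1118. The 5 libraries highest in the markers (the 3 orco2 libraries, per01 replicate 1 and w1118 replicate 2) were also the 5 highest for 6 of the 7 copies, the exception being RpS28a. Markers of the accessory gland, another male organ, did not run in that order, at 10524, 16463 and 549 CPM in per01, 6784, 9061 and 8134 CPM in orco2 against 115.2, 2408 and 274 CPM in w1118, with Acp95EF at 0 in all groups. Among 16 tested accessory gland markers, 11 rose and 0 fell between the orco2 and w1118 guts, where 11.5% of all tested genes were called higher. Their median log2 change was 5.64, against 2.39 for the testis and germline markers. Both lists summed higher in each orco2 library than in any w1118 library. The part of testis or accessory gland RNA in the levels of these copies was not tested.

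**Figure D5:**
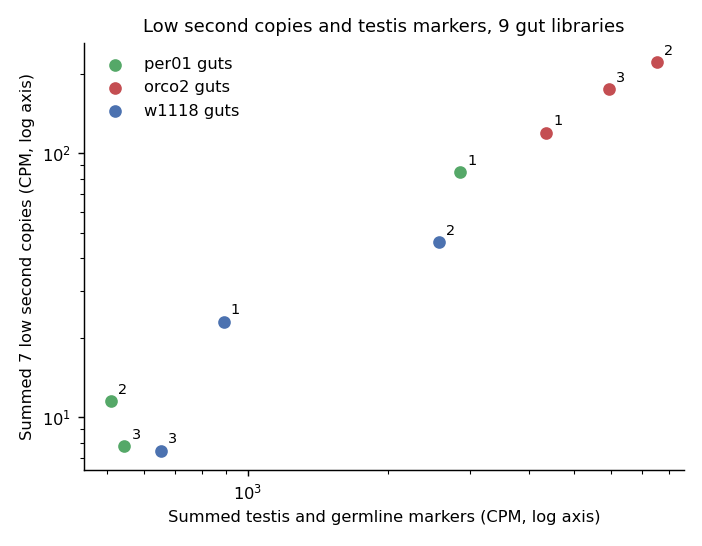
Summed CPM of the 7 low second copies (y axis, log scale) against the summed CPM of 28 testis and germline markers (x axis, log scale) in the 9 gut libraries, coloured by genotype and labelled with the replicate number. The 3 orco2 libraries are highest on both axes, and per01 replicate 1 and w1118 replicate 2 come next.

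Within a library, the ratio of second copy to partner did not overlap between groups for 12 of 13 pairs in orco2 against w1118 guts. It did not overlap for 11 pairs in per01 against orco2 and 3 in per01 against w1118. An exact permutation p of 0.1 was the smallest possible for a pair, and the lowest after adjustment was 0.242. Several pairs hold the low copies above, which were high together, so the pairs are not separate observations. A share over other gene pairs is not given here. The RpS14 pair, which stood apart in per01, is given here. RpS14a and RpS14b lie in tandem on chromosome X (7933742 to 7934677 and 7934898 to 7935792 on the forward strand, BDGP6) and encode the same protein of the small subunit platform. RpS14a had 599, 1166 and 1062 CPM in per01, 378, 322 and 357 CPM in orco2 against 503, 459.8 and 585 CPM in w1118 guts. It was the single member called between per01 and orco2 (1.42 ± 0.29, adjusted p = 0.0376 by edgeR), and that call held only without per01 replicate 1 of the 6 libraries left out in turn.

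RpS14b had 94.6, 186 and 176 CPM in per01, 134, 112 and 116 CPM in orco2 against 154, 150.1 and 201 CPM in w1118 guts (0.34 ± 0.28 in per01 against orco2, not passed). Within a library, RpS14a had 6.33, 6.28 and 6.02 counts per count of RpS14b in per01, 2.83, 2.88 and 3.09 in orco2 and 3.27, 3.06 and 2.92 in w1118 guts. The ratio needs no scaling and the per01 libraries, replicate 1 included, lay close together and apart from all others. The log2 ratio of RpS14b to RpS14a differed by -1.08 in per01 against orco2 and by -1.01 in per01 against w1118 (two-sided exact permutation p = 0.1 for each, the smallest possible, and 0.242 after adjustment over 63 tests). In heads RpS14a had 3.65 to 4.996 counts per count of RpS14b. The copies are near-identical, and how the counting split reads that fit both is not given, so the ratio is uncertain as a measure of transcript balance.

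RpLP0-like, low but present in every library, had 25.5, 39.1 and 41.7 CPM in per01, 21.7, 19.1 and 21.3 CPM in orco2 against 16.9, 16.03 and 17.5 CPM in w1118 guts, without overlap between any 2 groups. It rose in per01 against w1118 (1.08 ± 0.24, adjusted p = 0.0191 by edgeR), with RpLP0 at 0.36 ± 0.28, and did not pass in orco2 against w1118 (0.30 ± 0.23). RpL34a, RpL24-like and RpS15Ab passed in no gut comparison.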

How the data were processed

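Raw counts of reads on genes were deposited, 1 table for heads and 1 for guts. The submitters' processing notes name fastp, HISAT2, featureCounts and dm6 for the authors' steps. Annotation release, strand and multi-mapping settings are not given in the sources used here, so counts of near-identical, overlapping and antisense genes are uncertain (10 members share exon sequence with a gene on the same strand and 25 on the other). In each library 60.3 to 75.5% of counts from 1 to 20 were even numbers. FBgn identifiers were matched to symbols, exon lengths and coordinates of the Ensembl BDGP6.54 annotation.

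Heads and guts had separate edgeR 4.0.16 fits (R 4.3.3, TMM, filterByExpr with a minimum count of 10, group means, all libraries of the tissue) and p-values were adjusted over all tested genes. In heads 85 of 92 members passed the filter (not RpS28a, RpL10Aa, RpS19b, RpL37-2, RpL22-like, RpS28-like and RpL7-like), and 91 in guts (not RpL7-like). A member can pass through 1 high group. Alternatives were DESeq2 1.42.0, limma-voom 3.58.1, other scalings, no filter, only the groups compared, a replicate block and each library left out. TPM were computed here from exon lengths, and shares and ratios were compared by exact permutation tests. The fits were tested on simulated data.

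Members and lists were chosen with earlier results of these data known. The rule names family members with partners, the stalk, and single copies by smallest p (5 per direction) and by largest and smallest fold change (3 each). Other names were chosen after values were seen. Some members that the rule names, a second copy and its partner among them, are not reported here.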

Additional observations from a re-analysis of the deposited data

Results flagged for a closer look

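The share of counts in ribosomal protein genes differed between orco2 and w1118 in opposite directions in the 2 tissues at day 40. It was higher in orco2 by 2.79 percentage points in heads (10.7 and 10.2% in orco2, 7.12 and 8.19% in w1118) and differed by -2.24 percentage points in guts (6.76, 6.21 and 6.57% in orco2, 7.91, 8.04 and 10.3% in w1118). Every orco2 library lay on the same side of every w1118 library within its tissue, and the difference between the tissues was not tested, since heads and guts were counted and scaled in separate tables. Per gene, 82 of 85 members had orco2 libraries above all w1118 libraries in heads at day 40 (background 33.2% of tested genes), and 45 of 91 had them below all w1118 libraries in guts (background 26.1%). Library scaling, fat body markers (20636 to 24519 CPM in orco2 and 9552 to 11500 CPM in w1118 heads) and testis markers (4353 to 7541 CPM in orco2 and 652 to 2572 CPM in w1118 guts) moved with these groups too, and their part was not tested.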

How the results depend on the processing

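Counts of ribosomal protein genes called depended on the libraries and tools, and medians less so. With each library left out in turn, the count ran from 0 to 59 at day 3 (median 0.39 to 0.62) and from 0 to 31 at day 40 (median 0.48 to 0.78) between genotypes in heads. It ran from 31 to 83 with age in orco2 (median 0.70 to 0.94), from 4 to 48 with age in w1118 (median 0.53 to 0.79) and from 0 to 1 for the interaction (median 0.011 to 0.29). In guts the count ran from 0 to 74 for per01 against orco2 (median 0.48 to 0.90), from 0 to 24 for per01 against w1118 (median 0.14 to 0.48) and from 0 to 10 for orco2 against w1118 (median -0.45 to -0.29). Calls over all tested genes ran from 19 to 5211, from 973 to 2937 and from 590 to 3198 in these 3 comparisons. In heads leaving out a library leaves 1 in the group, which is then assumed to vary like the other groups. Those counts are not given.

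Shares ran from 1.16 to 2.20 percentage points at day 3, from 2.25 to 3.33 at day 40, from 3.34 to 4.37 with age in orco2 and from 2.20 to 3.28 with age in w1118. In guts they ran from -0.573 to 0.484 for per01 against orco2, which changed sign, from -2.81 to -1.48 for per01 against w1118 and from -2.66 to -1.46 for orco2 against w1118. The median log2 ratio of second copy to partner ran from -0.31 to -0.14 at day 3, from -0.22 to -0.17 at day 40, from -0.28 to -0.069 with age in orco2 and from -0.50 to -0.34 with age in w1118. In guts it ran from -4.78 to -2.43 for per01 against orco2, from -1.06 to 0.56 for per01 against w1118 and from 2.45 to 3.54 for orco2 against w1118. For per01 against w1118 it was also 0.076 with a pseudocount of 5.

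At day 3 in heads the count was 45 without the count filter, 53 by DESeq2, 0 with only the 2 groups fitted and 13 with library totals (median 0.42). Calls over all tested genes were 1354 of 18418, 1506 of 12243, 347 of 11501 and 964 of 12243 in that order. Library totals gave 30 at day 40 (median 0.45), where 2125 of 12243 genes were called, and a median of 0.68 with age in orco2. For per01 against orco2 guts the count was 2 with TMM set without the members and 8 with only the 2 groups fitted. It was 24 by DESeq2 (21 higher, 3 lower) and 15 by limma-voom (8 higher, 7 lower). Calls over all tested genes were 762 of 13453, 2331 of 12945, 4573 of 13453 and 3737 of 13453 in that order. The median was -0.014 with library totals. For per01 against w1118 guts the count was 3 with DESeq2 size factors and 0 with only the 2 groups fitted. It was 13 by DESeq2 (12 higher, 1 lower) and 21 with library totals (1 higher, 20 lower, median -0.34). Calls over all tested genes were 2688 of 13453, 1405 of 12482, 4376 of 13453 and 4338 of 13453 in that order. For orco2 against w1118 guts the count was 3 without the count filter, 38 with only the 2 groups fitted (8 higher, 30 lower) and 18 with library totals. It was 28 by DESeq2 (8 higher, 20 lower) and 22 by limma-voom (9 higher, 13 lower). Calls over all tested genes were 3226 of 15969, 5477 of 13300, 3635 of 13453, 6506 of 13453 and 5881 of 13453 in that order. Gut counts were also taken with per01 replicate 1 and w1118 replicate 1 left out together, chosen after seeing the data as was the scaling by library totals. They were 89 for per01 against orco2 (81 higher, 8 lower) and 25, all higher, for per01 against w1118. For orco2 against w1118 the count was 44 (10 higher, 34 lower). Calls over all 13691 tested genes were 6645, 4144 and 5486 in that order. The cause of these differences was not tested.

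Same-numbered libraries had correlations between -0.40 and 0.15 in their deviations from group means. In heads, with 2 libraries in a group, each value only mirrors in sign that of differently numbered libraries. The check therefore cannot decide whether the numbers pair libraries. With a replicate block the count was 0 in each of the 3 gut comparisons. In heads it was 16 at day 3, 47 at day 40, 63 with age in orco2, 52 with age in w1118 and 0 for the interaction. Calls over all tested genes with the block were 42 for per01 against orco2, 1294 for per01 against w1118 and 2070 for orco2 against w1118 guts. In heads they were 745, 1238, 2600, 1609 and 1 in the order above. Under alternatives, 70 calls of single genes gave 876 values. Of these values, 662 stayed past the threshold in the same direction, 214 no longer passed and 0 changed sign. The 70 are calls of genes picked by the naming rule, not all calls of members. Some alternatives lie close to the main fit, and TMM set without the members kept all 70.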
